A study of Mus musculus with 8 samples.

Results

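The genes described here are 10 genes of mouse embryonic fibroblasts (MEFs) whose expression was above control in cells expressing *EZHIP* and in EED-null cells, and below control in cells expressing H3.3 K27M. They are *Crabp1*, *Penk*, *Gdnf*, *Dlk2*, *Plxnc1*, *Fjx1*, *Xylt1*, *Pkp1*, *Prdm6* and *Ltbp1*, and they are 10 of the 875 genes in the table. The table holds normalized expression from RNA sequencing of 8 libraries, 2 from each of 4 groups. It was limited at deposit to genes that differed between EZHIP and control cells. The genes were chosen by their levels in all 4 groups, so those levels are described without a test. Related genes, which the choice did not use, are tested below, but their lists were made with earlier results of these data known. The other test below is on EED-null against EZHIP cells in the 10. There the choice left the direction free but limited the size, since both groups had to be above control.

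The control libraries came from the parental fibroblasts, in which loxP sites flank part of *EED*. The other groups were derived from these floxed cells. The EZHIP libraries came from parental cells stably transduced with a lentivirus carrying human *EZHIP*, and the K27M libraries from parental cells transduced with a lentivirus carrying H3.3K27M, histone H3.3 with methionine in place of lysine at position 27. The transgenes were driven by an EF1a promoter and transduced cells were selected with puromycin. The EED-null libraries came from 1 clone of floxed cells in which Cre, delivered by a hit-and-run lentivirus, had deleted the gene. The labels name no virus for the control cells. Nothing in the labels says that the 2 libraries of a group came from separate cultures, so the spread between them may be technical. The 8 libraries held between 209390 and 424561 estimated reads on the listed genes.

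EED is a core subunit of Polycomb repressive complex 2 (PRC2), which methylates lysine 27 of histone H3 and so keeps many developmental genes silent, chiefly at CpG-rich promoters. H3 K27M and EZHIP both inhibit this enzyme, and EZHIP does so through a peptide that resembles K27M. The 10 genes were not chosen by pathway. They encode a neuropeptide precursor, a neurotrophic factor, other secreted or membrane signalling proteins, a semaphorin receptor, a retinoic acid binding protein, an enzyme of proteoglycan synthesis, a desmosome protein and a zinc finger protein.

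The starts of all 10 genes were rich in CpG, a feature that the choice of the genes did not use. Within 500 bases on either side of the annotated gene start in mm9, each of the 10 had a GC content over 50% and a ratio of observed to expected CpG over 0.6. Of the other listed genes higher in EZHIP cells, 66.4% of 476 passed both limits, as did 38.3% of 355 listed genes lower in EZHIP cells and 44.2% of 22023 protein-coding genes with 1 annotated locus. The CpG ratio ranged from 0.617 for *Crabp1* to 0.942 for *Plxnc1*, with a median of 0.789, against a median of 0.705 for the other listed genes higher in EZHIP cells and 0.550 for all protein-coding genes. *Plxnc1* stood apart from the rest at the top of this range, and the next gene was *Prdm6* at 0.814.

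**Figure D1:**
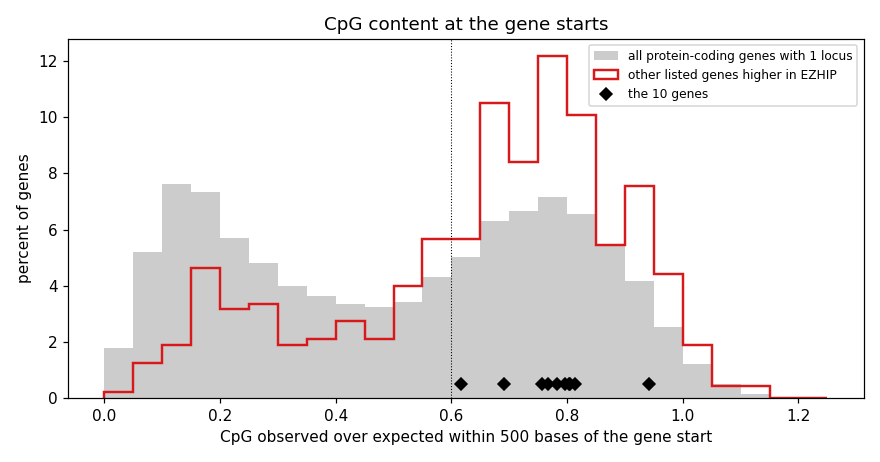
Distribution of the ratio of observed to expected CpG (x axis) within 500 bases of the gene start, as the percent of genes in each bin (y axis), for all protein-coding genes with 1 locus (grey) and for the other listed genes higher in EZHIP cells (red line). Diamonds mark the 10 genes, and the dotted line the limit of 0.6, above which all 10 lie.

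The promoter sequences of 3 genes are shown because these genes span the range of the K27M levels, from *Crabp1* and *Plxnc1*, which kept the smallest shares of their control level among the genes that were well covered, to *Ltbp1*, which kept the largest. RefSeq promoters of the GRCm38.p6 build were examined for 5 of the 10 genes, *Crabp1*, *Plxnc1*, *Gdnf*, *Dlk2* and *Ltbp1*. *Penk*, *Fjx1*, *Xylt1* and *Pkp1* were not matched, and the promoter of *Prdm6* was not examined. Each line gives the 250 bases before the annotated start, 5′ to 3′ on the strand of the gene, with every CpG in capitals. *Crabp1* is at chr9:54764498-54764747 on the plus strand, *Plxnc1* at chr10:94944846-94945095 on the minus strand and *Ltbp1*, at the first of its 2 starts, at chr17:75005279-75005528 on the plus strand.
*Crabp1*: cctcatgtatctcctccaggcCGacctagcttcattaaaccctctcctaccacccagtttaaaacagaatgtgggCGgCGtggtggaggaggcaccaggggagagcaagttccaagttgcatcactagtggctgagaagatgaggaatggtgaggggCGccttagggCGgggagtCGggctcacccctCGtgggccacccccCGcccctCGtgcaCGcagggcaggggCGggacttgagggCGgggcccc
*Plxnc1*: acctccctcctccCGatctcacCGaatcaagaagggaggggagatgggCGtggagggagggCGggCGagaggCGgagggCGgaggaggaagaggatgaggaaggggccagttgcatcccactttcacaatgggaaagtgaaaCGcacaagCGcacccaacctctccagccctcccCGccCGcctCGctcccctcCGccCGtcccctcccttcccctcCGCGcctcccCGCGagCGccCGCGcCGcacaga
*Ltbp1*: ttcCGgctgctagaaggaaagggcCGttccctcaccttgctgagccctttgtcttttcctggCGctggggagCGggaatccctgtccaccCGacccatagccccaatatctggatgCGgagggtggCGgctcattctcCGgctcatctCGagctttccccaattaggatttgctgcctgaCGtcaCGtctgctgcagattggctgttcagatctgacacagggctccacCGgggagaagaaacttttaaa

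The window of *Plxnc1* held 22 CpG, more than 85.2% of the 32841 RefSeq promoters of this length, while those of *Crabp1* and *Ltbp1* held 12 each, more than 66.5% of them. The median promoter held 6. In these shorter windows the ratio of observed to expected CpG was 0.752 for *Plxnc1*, 0.477 for *Crabp1* and 0.596 for *Ltbp1*. Only that of *Plxnc1* was over the limit of 0.6 used above, so passing that limit depends on the window. The median promoter had a ratio of 0.374. The 250 bases were searched on both strands for a TATA box (TATAAA), a GC box (GGGCGG), an AP-1 site (TGANTCA), an E-box (CACGTG), a CRE half-site (CGTCA) and a nuclear receptor half-site (AGGTCA). The GC box, the E-box and the CRE half-site each contain a CpG. The windows of *Crabp1* and *Plxnc1* held a GC box, which 32.7% of all promoters hold, and the window of *Ltbp1* held a CRE half-site, which 17.8% hold. None of the other motifs searched was in these 3 windows, and no motif was shared by all 3. At the second start of *Ltbp1* the window held 7 CpG, with a ratio of 0.436, and none of the motifs searched.

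Across the 10 genes, the median log2 difference from control was 2.39 in EZHIP cells, 1.69 in EED-null cells and -2.10 in K27M cells. Differences are on the log2(value + 1) scale, which understates those of weakly expressed genes. Among the other 485 listed genes higher in EZHIP cells, the medians were 2.07, 1.96 and 1.67, and K27M cells had the higher fitted value for 414 of them. In single libraries, the median of the 10 genes against mean control was 2.42 and 2.35 in EZHIP, 1.71 and 1.66 in EED-null, and -1.96 and -1.82 in K27M cells. For each of the 10 genes, both EZHIP and both EED-null libraries lay above both control libraries, and both K27M libraries lay below them. That order held for 4.91% of the listed genes, and for the 10 it is what they were chosen by. The levels depend on the scaling. Rescaling the libraries on the listed genes themselves shifted the median gene by -0.45 in K27M, -0.31 in EZHIP and -0.39 in EED-null cells against control, and left the direction of each of the 30 differences from control as it was.

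**Figure D2:**
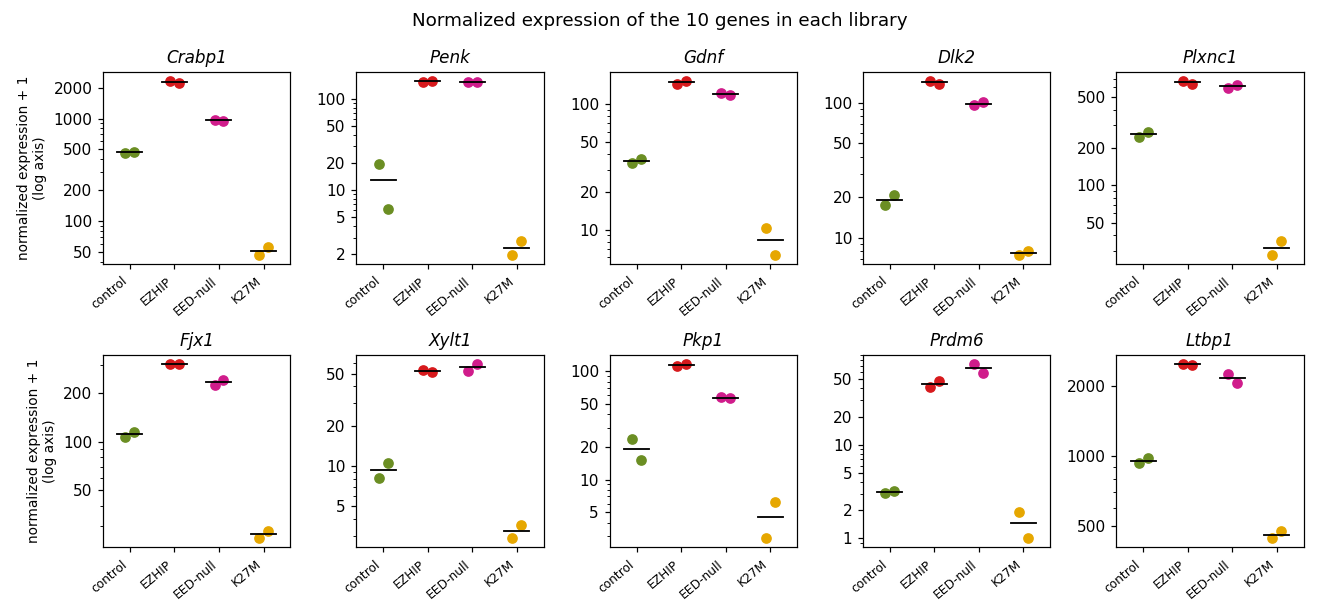
Normalized expression plus 1, on a log axis, of each of the 10 genes in the 8 libraries. Points are libraries, black lines group means (n = 2). In every panel the K27M points lie below the control points and the EZHIP and EED-null points above them.

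The first set of genes encodes secreted or membrane-bound signalling proteins. *Penk* (ENSMUSG00000045573.9, chromosome 4, 4060678 to 4065966 of mm9, minus strand; all genes below without a strand are on the plus strand) encodes proenkephalin, the precursor of the enkephalin opioid peptides. Its normalized expression was 18.5 and 5.17 in the control libraries, 153 and 157 in EZHIP, 151 and 151 in EED-null, and 0.927 and 1.75 in K27M libraries. EZHIP and EED-null cells were at nearly the same level, 13.1 and 12.8 times the control mean, while the 2 control libraries differed from each other more than for any of the other genes. The K27M libraries held 1 and 2 estimated reads of *Penk*, against 18 and 7 in control. Control over K27M was therefore only known as a ratio of 7.95, with an exact 95% interval from 2.43 to 41.1 that covers counting error alone. The log2 difference of *Penk* from control, 3.83 in EZHIP, 3.80 in EED-null and -2.25 in K27M cells, was 4.66, 4.62 and -1.42 without control replicate 1. Without control replicate 2 it was 3.0, 2.97 and -3.08.

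*Gdnf* (ENSMUSG00000022144.3, chromosome 15, 7761011 to 7787575) encodes glial cell line-derived neurotrophic factor, a ligand of the RET receptor. It was at 32.8 and 35.4 in the control, 144 and 153 in the EZHIP, 122 and 117 in the EED-null and 9.27 and 5.25 in the K27M libraries. The mean was 149 ± 5.91 (SD, n = 2) in EZHIP cells, 4.35 times control, and 120 ± 3.35 (SD, n = 2) in EED-null cells, 3.50 times control. The K27M mean, 7.26 ± 2.85 (SD, n = 2), was 21.3% of control.

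*Dlk2* (ENSMUSG00000047428.7, chromosome 17, 46434370 to 46440220) encodes a membrane protein with EGF-like repeats, related to the Notch ligands. Its levels were 16.4 and 19.9 in the control, 144 and 136 in the EZHIP, 94.3 and 99.8 in the EED-null and 6.49 and 6.99 in the K27M libraries. EZHIP cells thus held 7.70 times and EED-null cells 5.34 times the control level. K27M cells kept 37.1% of it, at a mean of 6.74 ± 0.354 (SD, n = 2), from 7 and 8 estimated reads.

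*Fjx1* (ENSMUSG00000075012.3, chromosome 2, 102289525 to 102291949, minus strand), a gene of a single exon, is the mouse homologue of *Drosophila* four-jointed, a regulator of planar cell polarity. It was at 107 and 114 in the control, 304 and 302 in the EZHIP, 225 and 242 in the EED-null and 24.1 and 27.1 in the K27M libraries. The EZHIP libraries were 2.74 times and the EED-null libraries 2.11 times the control mean, and K27M was at 23.2% of control.

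*Ltbp1* (ENSMUSG00000001870.8, chromosome 17, 75404908 to 75791852) encodes a microfibril protein that binds latent TGF-beta in the extracellular matrix. It had the highest values before division by length, with 929 and 975 in the control, 2477 and 2452 in the EZHIP, 2250 and 2056 in the EED-null and 442 and 476 in the K27M libraries. Its K27M mean, 459 ± 23.4 (SD, n = 2), was 48.2% of control, the largest share among the 10. At this depth the counting error was small, and the ratio of control to K27M was 2.08 with an exact 95% interval from 1.93 to 2.24.

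The second set acts at the cell surface or inside the cell. *Crabp1* (ENSMUSG00000032291.8, chromosome 9, 54612555 to 54620917) encodes a cytoplasmic protein that binds retinoic acid. Its levels were 465 and 467 in the control, 2344 and 2217 in the EZHIP, 973 and 954 in the EED-null and 45.4 and 54.2 in the K27M libraries. EZHIP cells held 4.89 times the control mean and EED-null cells 2.07 times, and K27M cells kept 10.7% of it. The EZHIP mean was 45.8 times the K27M mean, with 1981 and 1945 estimated reads in the EZHIP libraries and 49 and 62 in the K27M libraries.

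*Plxnc1* (ENSMUSG00000074785.3, chromosome 10, 94253617 to 94407212, minus strand) encodes plexin C1, a receptor of semaphorin 7A. It was at 243 and 264 in the control, 679 and 637 in the EZHIP, 592 and 631 in the EED-null and 26.9 and 35.0 in the K27M libraries. EZHIP and EED-null cells were 2.59 and 2.41 times control. K27M cells kept 12.2% of the control level, with 29 and 40 reads left.

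*Pkp1* (ENSMUSG00000026413.6, chromosome 1, 137767972 to 137815784, minus strand) encodes plakophilin 1, a plaque protein of desmosomes. Its values were 22.6 and 14.0 in the control, 110 and 116 in the EZHIP, 56.8 and 55.2 in the EED-null and 1.85 and 5.25 in the K27M libraries. EZHIP cells were 6.18 times and EED-null cells 3.06 times control. The 8 reads in K27M cells against 41 in control gave a ratio of control to K27M of 4.89, with an exact 95% interval from 2.26 to 12.1.

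*Xylt1* (ENSMUSG00000030657.5, chromosome 7, 124524493 to 124811265) encodes a xylosyltransferase that starts glycosaminoglycan chains on proteoglycans. It was weak in control, at 7.19 and 9.60, and stood at 52.1 and 50.2 in EZHIP, 51.3 and 58.1 in EED-null, and 1.85 and 2.62 in K27M libraries. EED-null and EZHIP cells overlapped, at 6.52 and 6.09 times control. Only 2 and 3 reads were estimated in the K27M libraries, which gave a ratio of control to K27M of 3.82 with an exact 95% interval from 1.39 to 13.0.

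*Prdm6* (ENSMUSG00000069378.6, chromosome 18, 53624200 to 53735561) encodes a PR-domain zinc finger protein known as a transcriptional repressor in smooth muscle. It was at 2.05 and 2.21 in the control, 40.2 and 46.7 in the EZHIP, 72.1 and 57.2 in the EED-null and 0.927 and 0 in the K27M libraries. The control libraries held 2 and 3 reads and the K27M libraries 1 and 0, all at or under the 3 reads taken as the limit of detection. A difference of *Prdm6* between K27M and control was therefore not detectable at this depth, and its place among the 10 rests on 5 reads against 1. EZHIP over control was a ratio of 20.3 with an exact 95% interval from 8.32 to 64.3, and EED-null over control one of 29.5, from 12.3 to 92.6.

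**Figure D3:**
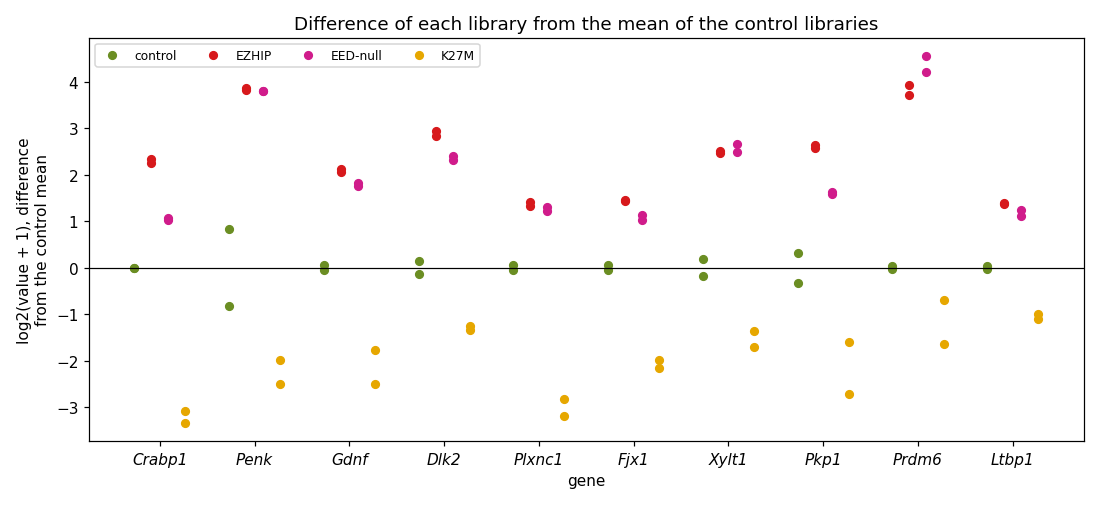
Difference of each library from the mean of the 2 control libraries, on the log2(value + 1) scale (y axis), for the 10 genes (x axis). Each point is 1 library. K27M libraries range from -3.33 to -0.70, EZHIP libraries from 1.33 to 3.93 and EED-null libraries from 1.02 to 4.54.

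Levels can be compared between genes only per length of the annotated exons. Per kb, *Crabp1* was the most abundant of the 10 in every group, at 581 ± 1.63 (SD, n = 2) in control and 2844 ± 112 (SD, n = 2) in EZHIP cells, followed by *Ltbp1* and *Fjx1* in every group. In control cells *Plxnc1* came next, and then *Gdnf*, *Dlk2*, *Penk* and *Pkp1*, each of which overlapped its neighbour in that order. In EZHIP cells *Penk* followed *Fjx1*, its libraries at 93.4 and 96.3 per kb, and overlapped *Plxnc1* at 93.5 ± 4.23 (SD, n = 2). In K27M cells *Crabp1* remained first at 62.1 ± 7.72 (SD, n = 2) per kb, and *Penk*, *Pkp1* and *Xylt1* overlapped, with no library above 1.07 per kb.

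The comparison of EED-null with EZHIP cells asks whether deleting a PRC2 subunit and expressing its inhibitor left these genes at the same level. The choice of the genes put both groups above control and did not fix which was higher. It did limit how far EED-null cells could lie below EZHIP cells, most of all for genes raised little by EZHIP. It was tested with limma over all 8 libraries and all 875 genes, and a call needed a difference of 2-fold or more as well as a Benjamini-Hochberg adjusted p-value under 0.05. Of the 10 genes 1 was called, where 44.9% of the listed genes were, 25.1% as higher in EED-null cells and 19.8% as lower. Because of that limit, the shares over the table here and below are not a like comparison for the 10. The number called among them is not read as a result. The gene called was *Crabp1*, which was lower in EED-null cells by a log2 difference of -1.24 (standard error 0.12, adjusted p = 0.000256 from limma). That p-value does not allow for the choice of the genes or for the selection of the table, both of which used the EZHIP level. The EED-null mean, 964 ± 13.2 (SD, n = 2), was 42.3% of the EZHIP mean, 2281 ± 89.7 (SD, n = 2).

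*Dlk2* and *Fjx1* passed the adjusted p-value in limma (0.0104 and 0.0221) but not the 2-fold limit, with log2 differences of -0.52 and -0.38. By the adjusted p-value alone, 3 of the 10 genes passed, against 68.7% of the listed genes. Apart from that of *Crabp1*, these passes depended on the setting. *Dlk2* and *Fjx1* did not pass in every alternative, and *Gdnf*, *Ltbp1* and *Prdm6* passed in some. The EED-null mean of *Pkp1* was 49.5% of the EZHIP mean, with a 95% interval of the log2 difference from -1.95 to -0.05, and the gene missed the threshold (adjusted p = 0.0608 from limma). It was called with either K27M library left out, with only the 2 groups compared, with a trend, and after rescaling, so its call depended on the setting.

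For the other genes the data set bounds on the difference but did not show the groups to be alike. The 95% intervals on the log2 scale were -0.47 to 0.25 for *Plxnc1*, -0.45 to 0.06 for *Ltbp1*, -0.35 to 0.53 for *Xylt1* and -0.87 to 0.25 for *Gdnf*. These 4 intervals lie within 2-fold in either direction. The intervals of *Penk*, from -1.29 to 1.22, and *Prdm6*, from -0.21 to 1.32, do not. Each interval rests on a spread taken from all 4 groups, and for *Penk* the control libraries differed most, at 18.5 and 5.17. Its EZHIP libraries were at 153 and 157 and its EED-null libraries at 151 and 151. The width of its interval is therefore not the spread of the 2 groups compared. For 8 of the 10 genes both EED-null libraries lay below both EZHIP libraries, for *Prdm6* both lay above, and for *Xylt1* they overlapped. Over the whole table, both EED-null libraries lay below both EZHIP libraries for 39.8% of genes and above for 46.6%. That includes genes lower in EZHIP cells. Among the other 485 listed genes higher in EZHIP cells, the fitted value was lower in EED-null than in EZHIP cells for 267 and higher for 218. The table was selected on the difference between EZHIP and control, so the EZHIP level of every listed gene took part in that selection. The median of the 10 genes between EED-null and EZHIP was -0.25, against -0.18 for the other listed genes higher in EZHIP cells and 0.15 for all listed genes.

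**Figure D4:**
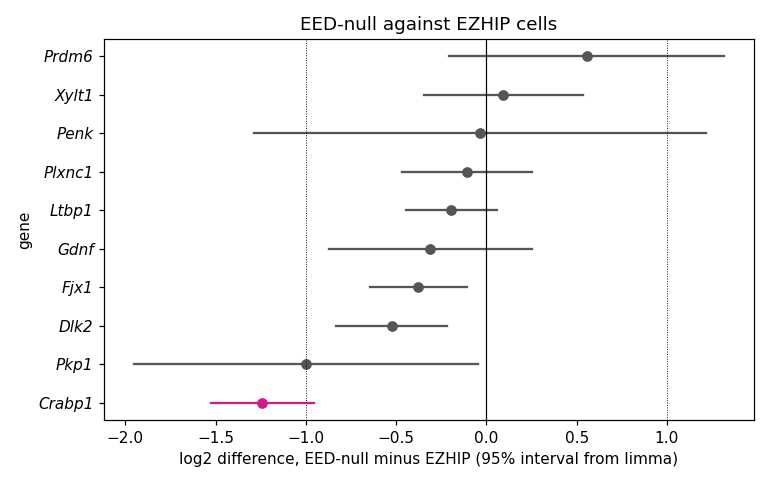
Log2 difference of EED-null minus EZHIP cells (x axis) for the 10 genes (y axis), with 95% intervals from limma, and dotted lines at 2-fold. *Crabp1*, the gene called, is in magenta, and the intervals of 6 genes cross 0.

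Other genes of the pathways were taken from 10 lists, 1 for each gene, which together held 221 genes, 36 of them in the table. Of these 36 related genes, limma called 17 above control and 10 below it in K27M cells, where 41.4% of the table was called above and 20.0% below. After rescaling, these numbers were 14 and 15 of the related genes, and 34.7% and 27.8% of the table. In EED-null cells 15 of the related genes were called above control and 12 below, where 39.9% of the table was above and 25.1% below. Between K27M and EED-null cells 21 were called, where 54.4% of the table was, with 13 related genes higher in K27M cells (27.8% of the table) and 8 lower (26.6%). No gene of the opioid peptide list or of the PRDM list was in the table.

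In the retinoid list, 4 of 4 listed genes were called higher in K27M cells, where *Crabp1* was lowest, and 2 of 4 after rescaling, without *Rdh10* and *Cyp26b1*. *Aldh1a1*, which makes retinoic acid from retinaldehyde, was at 5.66 ± 0.702 (SD, n = 2) in control, 20.2 ± 10.1 (SD, n = 2) in EZHIP, 3.67 ± 3.23 (SD, n = 2) in EED-null and 722 and 750 in the K27M libraries. *Rdh10*, a retinol dehydrogenase, was at 54.7 ± 3.29 (SD, n = 2) in control and 114 ± 13.7 (SD, n = 2) in K27M cells, but at 274 ± 10.6 (SD, n = 2) in EZHIP and 436 ± 8.61 (SD, n = 2) in EED-null cells. *Dhrs3*, a retinaldehyde reductase, and *Cyp26b1*, which degrades retinoic acid, were also called higher in K27M cells, by log2 differences of 1.62 and 1.32.

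The listed GDNF family receptors were above control in K27M cells, where *Gdnf* was below. *Gfra1*, the co-receptor that binds GDNF, was at 8.76 ± 2.23 (SD, n = 2) in control and was called higher in all 3 lines, at 125 ± 7.42 (SD, n = 2) in EZHIP, 86.2 ± 19.2 (SD, n = 2) in EED-null and 104 and 96.2 in the K27M libraries. *Gfra2*, the co-receptor of neurturin, was listed at 0 in both control libraries, at 26.7 ± 0.934 (SD, n = 2) in EZHIP cells, and at 3 and 5 reads in the K27M libraries.

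*Dsp* (desmoplakin), *Ppl* (periplakin) and *Perp*, the 3 listed desmosome genes, were all called higher in K27M cells, where *Pkp1* was lowest. *Dsp* was at 0 and 6 reads in the control libraries and reached 420 ± 58.2 (SD, n = 2) in K27M, 133 ± 3.56 (SD, n = 2) in EED-null and 55.1 ± 2.64 (SD, n = 2) in EZHIP cells. *Ppl* differed from control by 4.09 on the log2 scale in K27M cells and by 0.37 in EED-null cells. Of 7 listed plexin and semaphorin genes, 3 were called higher in K27M cells, 2 lower and 2 not, and after rescaling 2 were called higher and 2 lower. *Plxna4*, another semaphorin receptor, held 1 read in each control library and was at 134 ± 28.5 (SD, n = 2) in EZHIP, 83.7 ± 0.799 (SD, n = 2) in EED-null and 3232 ± 747 (SD, n = 2) in K27M cells. *Sema3e*, a secreted semaphorin, was called higher in K27M cells too, at 1336 ± 40.2 (SD, n = 2) against 70.7 ± 6.02 (SD, n = 2) in control, while *Sema3b* and *Sema3g* were called lower, by log2 differences of -1.51 and -1.08.

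In the remaining lists, too, the K27M calls went in both directions. Of 6 listed Notch genes, *Jag2* was called higher in K27M cells and *Jag1*, *Hey1* and *Heyl* lower, joined after rescaling by *Dlk1*, the closest paralogue of *Dlk2*, and *Hey2*. *Jag1*, a Notch ligand, was at 1463 ± 49.1 (SD, n = 2) in control, 418 ± 16.0 (SD, n = 2) in EZHIP, 80.6 ± 19.4 (SD, n = 2) in EED-null and 218 ± 9.99 (SD, n = 2) in K27M cells. Of 4 planar polarity genes, *Celsr1* and *Prickle1* were called higher, *Fat4* was called lower and *Prickle2* was not called. *Fat4*, the large cadherin of the pathway in which four-jointed acts, differed by -2.67 in K27M and by -1.22 in EED-null cells. Of 4 genes of glycosaminoglycan synthesis, *Chst11* was called higher, *Chst15* and *Chpf* lower, and *Hs3st3b1* was not called. *Chst15* resembled *Xylt1* in K27M cells, at 33.7 ± 1.77 (SD, n = 2) against 110 ± 7.90 (SD, n = 2) in control. In EED-null cells it was at 129 ± 2.32 (SD, n = 2) and was not called. Of 6 TGF-beta and microfibril genes, *Lrrc32*, which anchors latent TGF-beta to the cell surface, was called higher and *Ltbp2* and *Mfap4* lower, joined after rescaling by *Eln*, *Fbn1* and *Mfap2*.

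**Figure D5:**
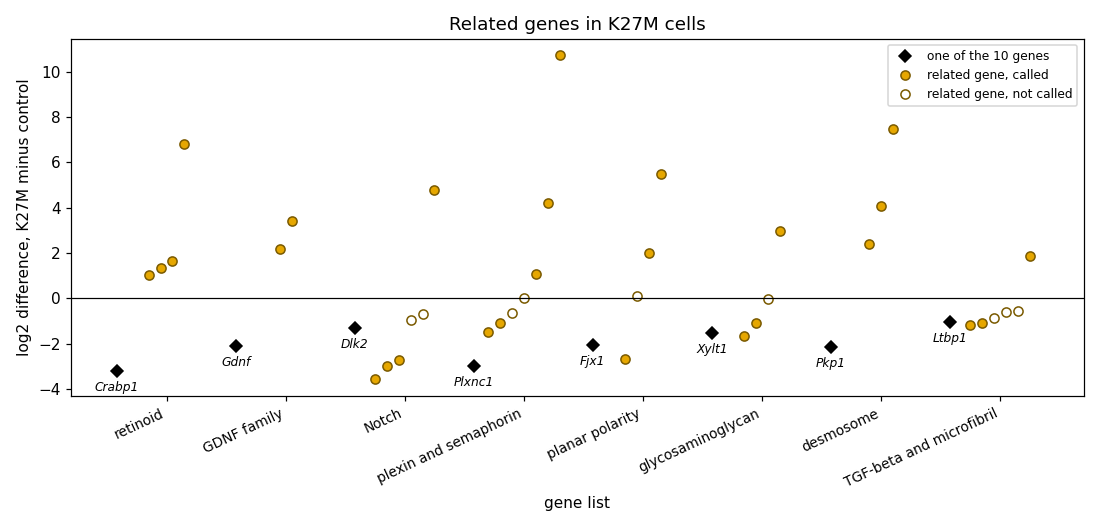
Log2 difference of K27M minus control cells (y axis) for the 36 related genes by list (x axis). Filled circles were called, open circles were not, and black diamonds are the genes of the 10 to which each list belongs. *Plxna4* is highest. All 9 listed retinoid, GDNF family and desmosome genes lie above 0, and the genes of each other list lie on both sides of it. Over all 875 listed genes, the fitted value was above control in K27M cells for 543.

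Of the genes of the table, 6 lay within 500 kb of 1 of the 10, near *Crabp1*, *Penk* and *Fjx1*. *Plag1*, a zinc finger gene 195108 bp from *Penk*, was at 23.5 ± 3.01 (SD, n = 2) in control, 257 ± 11.3 (SD, n = 2) in EZHIP, 625 ± 0.822 (SD, n = 2) in EED-null and 411 ± 35.1 (SD, n = 2) in K27M cells. *Chchd7*, 182485 bp from *Penk*, was called higher in K27M cells as well, and *Lyn* was not called there. Near *Crabp1*, *Agphd1* at 144173 bp was called lower in K27M cells, at 48.1 against 130 in control, and was also below control in EZHIP and EED-null cells, at 52.4 and 66.8. *Dmxl2*, also near *Crabp1*, was called higher in K27M cells, and *Slc1a2* near *Fjx1* was called higher, at 61.1 against 25.5 in control. Unlisted neighbours were not analysed here.

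Of all 875 genes, 62 (7.09%) had the pattern of the 10 by their group means and 13 (1.49%) had each of the 3 differences from control past the limits used above on fold and adjusted p-value. Above control in EZHIP cells, 56.0% of the table was past them. The 10 genes are among the 13, which is a description and no test, since they were chosen on the same differences. *Prdm6* was past the limits in K27M cells with reads at or under the limit of detection. The other genes were *Ifitm1*, *Kif26a* and *Mamdc2*. *Ifitm1* averaged 24.1 ± 3.55 (SD, n = 2) in control and 8.44 ± 5.38 (SD, n = 2) in K27M cells, *Kif26a* at 29.7 ± 4.44 (SD, n = 2) and 9.06 ± 2.93 (SD, n = 2), and *Mamdc2* at 13.5 ± 1.73 (SD, n = 2) and 6.23 ± 3.56 (SD, n = 2). Just inside the limits were *Ltbp1*, with a log2 difference of -1.05 in K27M cells, and *Crabp1*, with one of 1.05 in EED-null cells. Just outside were *Rnf165* and *Camk1d*, at 0.99 and 0.90 in EED-null cells, and *Adamts17* and *2610109H07Rik*, each at -0.87 in K27M cells.

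The 5 other listed genes most like the mean standardised profile of the 10 over the 8 libraries were *9930013L23Rik*, *Kif26a*, *Rnf165*, *Camk1d* and *Lmcd1*, with Pearson's r from 0.982 to 0.970. These are descriptions over 8 libraries that all the genes share. *Camk1d*, a calmodulin-dependent kinase, was at 163 ± 18.8 (SD, n = 2) in control, 328 ± 19.1 (SD, n = 2) in EZHIP, 306 ± 16.9 (SD, n = 2) in EED-null and 39.3 ± 6.10 (SD, n = 2) in K27M cells.

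The listed markers of cell types differed between the lines. Between EZHIP and control cells they had to, since the table was limited to genes that differ there, and most markers sought were not listed. Of 15 fibroblast markers 3 were in the table, *Col3a1*, *Dcn* and *Col14a1*, and their summed level was 17897 to 18278 in control, 6464 to 6950 in EZHIP, 5727 to 5816 in EED-null and 6168 to 6766 in K27M libraries. *Col3a1* made up most of the control sum and was at 17455 ± 297 (SD, n = 2) in control and 2361 ± 220.0 (SD, n = 2) in K27M cells. *Dcn* and *Col14a1* were higher in K27M than in control cells, at 3224 ± 44.4 (SD, n = 2) and 882 ± 159 (SD, n = 2) against 372 ± 11.1 (SD, n = 2) and 260 ± 16.9 (SD, n = 2). Of 7 epithelial markers *Krt14* and *Epcam* were listed, with a sum of 3.69 to 6.16 in control and 109 to 141 in K27M libraries, and *Krt14* was at 0 in both control libraries. Of 7 endothelial markers *Kdr* was listed, at 9.24 to 9.60 in control, 51.3 to 52.1 in EZHIP, 10.7 to 11.1 in EED-null and 157 to 222 in K27M libraries. Of 8 neural markers *Sox2* was listed, at 0 in all control and K27M libraries, 137 to 166 in EZHIP and 245 to 270 in EED-null libraries. No myeloid or muscle marker was in the table. The part of these shifts in the levels of the 10 genes was not tested, and fewer cells of a type cannot be told apart from less RNA per cell.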

How the data were processed

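RNA from MEFs was sequenced after depletion of ribosomal RNA, with RNA of another cell type added to each sample. By the sample labels, the authors estimated reads per gene with RSEM 1.2.4 on an mm9 transcriptome. The authors used EBSeq to limit the list. Deposited was a signal, a normalized value for each gene in each library, the estimated reads divided by 1 size factor per library, with no scaling by length or to a set total. Whether the added RNA entered the size factors is not given in the sources used here. Genes outside the deposited list were not analysed here.

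Values are multiples of 0.01 of what 1 read is worth, which gives the depth of each library on the listed genes. Precision depends on these reads. Only 72.2% to 82.5% of values were whole reads (within 0.001), so count models were not used. The spread between replicates exceeded sampling noise in all 4 groups (chi-square per gene 1.57 to 3.65). Groups and replicate numbers came from the labels. The test was limma 3.58.1 (R 4.3.3) with 1 mean for each group, fitted to log2(value + 1) of all 8 libraries, and p-values were adjusted by Benjamini-Hochberg over 875 genes. The smallest p-value of a two-sided exact permutation test at this size is 0.333, so every call uses limma's shared estimate of the spread. The fit was tested on simulated data. Ratios from few reads have exact binomial intervals, from reads rounded to whole numbers. Intervals cover counting error only. *Eed* is not in the table, so its loss was not checked.

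Gene positions, exon lengths and CpG content came from GENCODE and the genome of NCBIM37 (mm9), in which all 10 genes had 1 locus. Promoters came from RefSeq (GRCm38.p6). Python 3.11.15, pandas 2.3.3, numpy 2.4.6, scipy 1.17.1 and matplotlib 3.10.9 were used. The 10 genes and the gene lists were chosen with earlier results of these data known. Also named are the other genes with the same called pattern, the 5 most alike in profile, at most 4 genes per list with the largest difference between K27M and control, and listed genes within 500 kb. Genes named for a call that changed after rescaling, or as just outside the limits, were chosen after their values were seen. As alternatives, the fit was repeated with the replicate number as a block, with a trend, on the 2 groups compared alone, without each library, after rescaling by median ratios over the listed genes, with genes of mean 5 or more, and with a pseudocount of 0.1 or 5.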

Additional observations from a re-analysis of the deposited data

Results flagged for a closer look

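*Crabp1* differed between EED-null and EZHIP cells by a log2 difference of -1.24 in limma's test of that difference, and was lower in 2 of 2 EED-null libraries. The log2 difference ranged from -1.32 to -1.20 over the alternatives. *Crabp1* was chosen by levels that include those of both groups, and the table was selected on the difference between EZHIP and control cells. The choice also limited how far EED-null cells could lie below EZHIP cells. The adjusted p-value from limma allows for neither selection, so the call describes *Crabp1* and is not read as an independent result.

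For 10 of the 10 genes, every K27M library lay below and every EZHIP and EED-null library above both control libraries. The genes were chosen for this opposite direction, so no test of it is given.

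Of the 36 related genes, 21 differed between K27M and EED-null cells in limma's test of that difference, 13 higher and 8 lower in K27M cells. Over the table, 54.4% of genes were called in this comparison, 27.8% higher and 26.6% lower in K27M cells. The total among the related genes is near the share over the table and is not read as a result about them.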

How the results depend on the processing

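The direction of all 30 differences of the 10 genes from control, and the call of *Crabp1* between EED-null and EZHIP cells, were the same under the 15 alternatives. Between EED-null and EZHIP cells 1 of the 10 genes was called, and 2 after rescaling, with a trend and with only the 2 groups compared. The second of the 10 to be called was *Pkp1*. With each library left out the number was 1 to 2, and it was 2 without either K27M library. With the replicate block it was 1. Over the table the replicate block called 389 genes instead of 393, and the deviations of same-numbered libraries correlated between -0.09 and 0.11, so the numbers were not taken to pair the libraries.

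The median log2 difference from control was 2.39 in EZHIP cells, and became 2.45 with a pseudocount of 0.1, 2.18 with one of 5 and 2.08 after rescaling. In EED-null cells it was 1.69, and became 1.73, 1.54 and 1.31. In K27M cells it was -2.10, and became -2.37, -1.37 and -2.54. With 1 library left out it ranged from 2.28 to 2.42 in EZHIP, from 1.58 to 1.83 in EED-null and from -2.10 to -1.78 in K27M cells. With a pseudocount of 5, 7 of the 10 genes, chosen on these differences, had all 3 past the limits on fold and adjusted p-value, without *Dlk2*, *Xylt1* and *Prdm6*. Over all 875 genes 9 did. After rescaling 6 of the 10 did, without *Crabp1*, *Plxnc1*, *Fjx1* and *Ltbp1*, and 11 of the 875. Without control replicate 2 or K27M replicate 2, *Prdm6* did not, and without K27M replicate 1, *Ltbp1* did not. The causes were not tested. For related genes in K27M cells, 14 to 17 were called higher and 8 to 15 lower over the alternatives, and in EED-null cells 14 to 16 and 11 to 13. Few reads limit *Prdm6*, *Penk*, *Xylt1* and *Pkp1* in K27M cells.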
